A study of Homo sapiens with 88 samples.

Results

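Among established small cell lung cancer (SCLC) lines grown with vehicle alone, 3 lines with high ZEB1 were compared with 5 lines with low ZEB1. The groups were chosen from the measured ZEB1 level under the vehicle DMSO, averaged over all days of a line. SHP-77, NCI-H446 and H2171 had a mean above 10 and NCI-H510, COLO668, NCI-H146, H69 and H1417 a mean below 8, both as log2 signal on the array. NCI-H526 was left out by the rule, so 37 of the 88 arrays and 8 of the 9 lines entered, with the line as the replicate. Of the 37 arrays, 15 came from ZEB1-high and 22 from ZEB1-low lines.

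Gene expression was read on Affymetrix HG-U133 Plus 2.0 arrays from total RNA, and every group shared serum-containing RPMI and DMSO. SHP-77, NCI-H446, NCI-H510, COLO668 and NCI-H146 had arrays at days 2, 4 and 7, and H2171, H69 and H1417 at day 4 alone. The other arm of the series, called 552A in the titles, is used here in 38 arrays of the same 8 lines. GSK2879552, which inhibits the LSD1 histone demethylase, appears at 1 µM in the treatment protocol, and no label ties the name 552A to it. Each line descends from a single tumour, so the ZEB1 group cannot be told apart from any other property that the 3 lines happen to share. No label says that arrays of a line came from separate cultures. An array reads the pooled RNA of a culture, so fewer expressing cells and less RNA per cell cannot be told apart.

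ZEB1 is a zinc finger repressor that binds E-box sequences in the promoters of epithelial genes and recruits CtBP corepressors, with which LSD1 can associate. In carcinomas it drives the epithelial to mesenchymal transition, in which cells lose E-cadherin junctions and gain a mesenchymal cytoskeleton. SCLC cells usually carry both neuroendocrine markers and epithelial keratins, and ZEB1 and the epithelial factors OVOL2, GRHL2 and ESRP1 are known to oppose one another.

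The ZEB1 values that set the groups are given as a description. The mean DMSO level was 10.27 in SHP-77, 11.91 in NCI-H446 and 10.15 in H2171. It was 5.16 in NCI-H510, 6.74 in COLO668, 4.20 in NCI-H146, 7.03 in H69 and 6.00 in H1417. H2171 lay nearest the upper limit and H69 nearest the lower one, and 1 of the 2 H2171 arrays, at 9.99, lay just under 10. All 4 ZEB1 probe sets put the 3 ZEB1-high lines above the 5 others, with differences between 0.78 and 4.95. The left-out NCI-H526 had a ZEB1 level of 4.57.

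**Figure D1:**
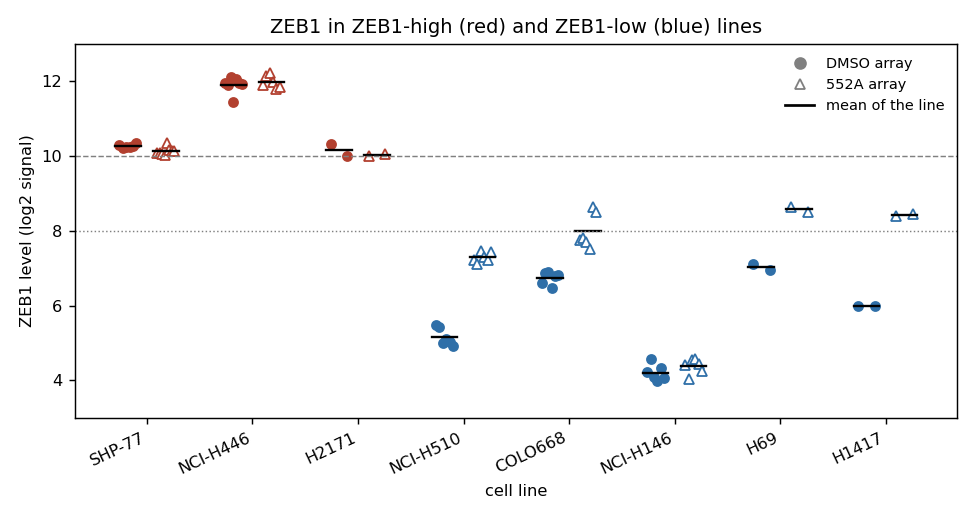
ZEB1 level (log2 signal) in each array of the 8 lines under DMSO (filled circles) and 552A (open triangles), with the mean of each line as a bar and the limits of 10 and 8 as dashed and dotted lines. Under DMSO the ZEB1-high lines average 10.15 to 11.91 and the ZEB1-low lines 4.20 to 7.03, and under 552A the line means of H69 and H1417 pass 8 while SHP-77, NCI-H446 and H2171 stay above 10.

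The array medians lay between 7.36 and 7.46. Of the 37 arrays, 3 stood apart by a quality measure: a replicate of SHP-77 and one of COLO668 at day 7, whose ACTB 3' minus 5' signal passed 0.8, and a day 4 replicate of NCI-H446 with an interquartile range of 2.56 against 2.89 for the next. Without them the main count of genes called moved from 4 to 5. INSM1, a transcription factor of neuroendocrine cells, was high in all 8 lines, between 13.05 and 13.80. Of 18 immune, fibroblast and endothelial markers, 12 passed the filter on dim probe sets, with a median difference of 0.19. The median of their levels, centred on the mean of the 8 lines, ran from -0.05 to 0.22 in ZEB1-high and from -0.17 to -0.01 in ZEB1-low lines. In NCI-H446 9 of the 12 (75%) lay above every ZEB1-low line, against 19.9% of all genes, in H2171 4 and in SHP-77 2. NCI-H446 is also the line with the lowest epithelial levels, given with those genes. The leukocyte marker PTPRC was dim throughout, between 3.97 and 5.81, while the endothelial cadherin CDH5 was at 10.91 in NCI-H446 and between 5.07 and 5.58 in the other 7 lines. The part of these markers in the results was not tested.

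Apart from ZEB1, the genes that separated the groups most firmly were the long noncoding RNA LINC01234, higher in the ZEB1-high lines, and PLS3, ALDH1A1 and NRIP1, lower in them. These 4 were the genes called by limma at an adjusted p below 0.05 among 15351 tested, 1 higher (0.00651%) and 3 lower (0.0195%). In 525 genes (3.42%) every ZEB1-high line lay above every ZEB1-low line, and in 342 (2.23%) every one lay below. At an unadjusted p below 0.05 there were 510 genes higher (3.32%) and 587 lower (3.82%), the shares against which the counts of each gene list can be read. Below, non-overlap refers to this separation of line means, which is a description and not a test. Single arrays of the 2 groups could still overlap, as they did for ESRP1, MYT1L, KIT and HLA-B, described below.

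LINC01234 was at 8.0 in SHP-77, 7.99 in NCI-H446 and 8.49 in H2171. In the ZEB1-low lines it was at 4.64 in NCI-H510, 4.66 in COLO668, 4.88 in NCI-H146, 4.82 in H69 and 4.80 in H1417. The groups did not overlap in any array, since the lowest array of a ZEB1-high line was at 7.26 and the highest of a ZEB1-low line at 4.92. The group means were 8.16 ± 0.28 (SD, n = 3 lines) and 4.76 ± 0.10 (SD, n = 5), and the difference was 3.39 (SE 0.17, adjusted p = 0.000958), and a second probe set, too dim to be kept, also separated the groups. Since the low group lay under 6.09, the median lower quartile of the arrays, where a probe set may be near its floor, this difference may be a lower limit. LINC01234 was called whichever line was left out, with an adjusted p between 0.00211 and 0.00965. In both arms its mean was under the filter limit of 7.41 in every ZEB1-low line and in NCI-H526. It thus entered the test through the ZEB1-high lines. Under a stricter filter on dim probe sets LINC01234 was not tested, and 0 genes were called higher.

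PLS3, which encodes the actin-bundling protein plastin 3, was at 5.49 in SHP-77, 4.76 in NCI-H446 and 4.07 in H2171. It was at 13.25 in NCI-H510, 10.72 in COLO668, 12.81 in NCI-H146, 11.76 in H69 and 10.85 in H1417. The ZEB1-high lines were thus all dim and the ZEB1-low lines all bright, with means of 4.77 ± 0.71 (SD, n = 3) and 11.88 ± 1.14 (SD, n = 5). The difference was -7.10 (SE 0.66, adjusted p = 0.0249), a linear ratio of 138 that may be a lower limit. ALDH1A1, an aldehyde dehydrogenase of retinoic acid synthesis, was at 5.29, 5.10 and 4.62 in SHP-77, NCI-H446 and H2171. Its levels in the ZEB1-low lines were 9.49 in NCI-H510, 11.83 in COLO668, 11.69 in NCI-H146, 11.64 in H69 and 10.47 in H1417. From 5.01 ± 0.34 (SD, n = 3) to 11.02 ± 1.02 (SD, n = 5), the difference of ALDH1A1 was -6.02 (SE 0.56, adjusted p = 0.0249). NRIP1, a corepressor of nuclear receptors, was at 4.54, 4.63 and 4.70 in the ZEB1-high lines in the same order, a spread smaller than that between the ZEB1-low lines. NRIP1 was at 9.18 in NCI-H510, 10.68 in COLO668, 9.76 in NCI-H146, 11.36 in H69 and 9.76 in H1417, a difference between 4.62 ± 0.08 (SD, n = 3) and 10.15 ± 0.86 (SD, n = 5) of -5.53 (SE 0.47, adjusted p = 0.0249) that both its probe sets showed. No array contradicted the separation for these 3 genes: the largest SD within a line was 0.35, in ALDH1A1.

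**Figure D2:**
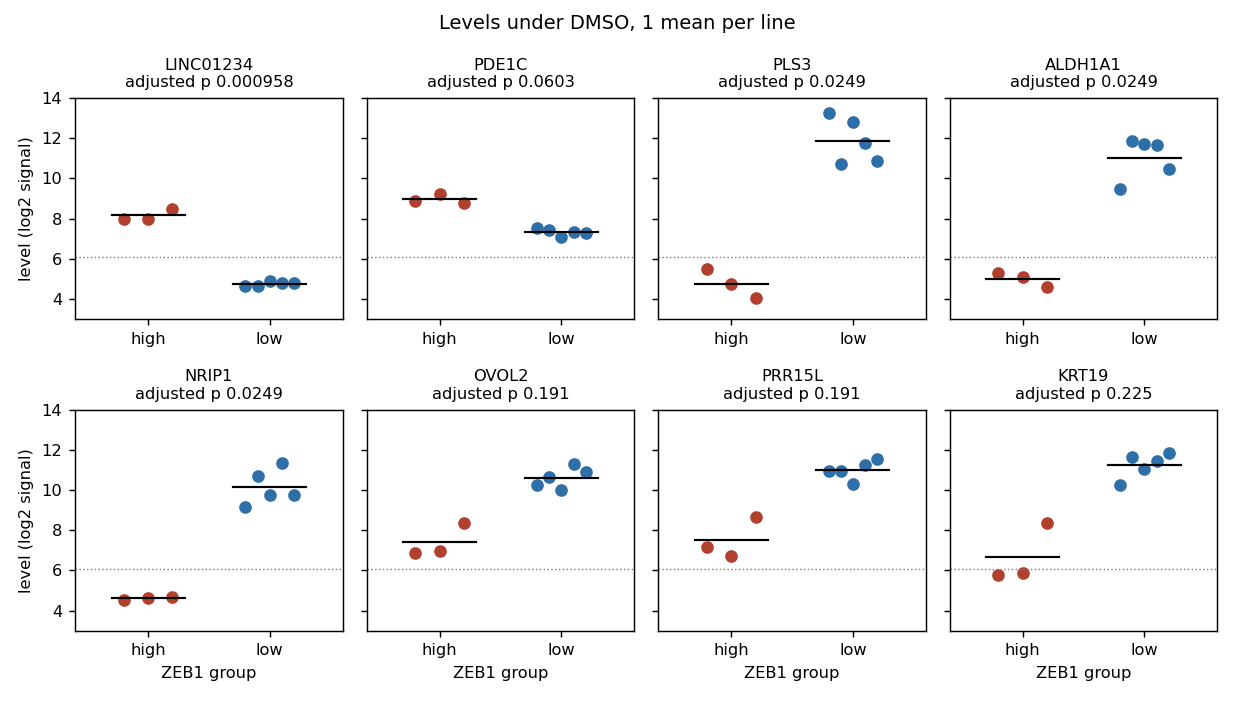
Level under DMSO (log2 signal) of 8 genes, with each dot the mean of a line, the bar the mean of the ZEB1 group and the dotted line the median lower quartile of the arrays (6.09). The ZEB1-high lines of PLS3, ALDH1A1 and NRIP1 lie under that line, while H2171 stands above SHP-77 and NCI-H446 in OVOL2, PRR15L and KRT19.

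Next by p came genes that did not pass the threshold. PDE1C, a phosphodiesterase of cyclic nucleotides activated by calmodulin, had a difference of 1.62 (SE 0.18, adjusted p = 0.0603). All 6 of its probe sets separated the groups, and 4 of the 6 were bright enough to be kept. PPP2R2B, a regulatory subunit of a serine/threonine phosphatase, was at 10.44 in SHP-77, 12.25 in NCI-H446 and 10.35 in H2171 and between 6.35 and 8.38 in the ZEB1-low lines (adjusted p = 0.25). A second PPP2R2B probe set, too dim to be kept, differed by 0.33, and its groups overlapped. MPI, the mannose phosphate isomerase, and TRIM61 differed by 1.15 and 1.04 (adjusted p = 0.25 for both). In both arms the mean of TRIM61 was under the filter limit in every ZEB1-low line and in NCI-H526. Another kept MPI probe set differed by 0.41, and its groups overlapped. In the other direction PRR15L differed by -3.47 and OVOL2, described with the epithelial regulators, by -3.23 (adjusted p = 0.191 for both).

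How many genes passed depended on the lines. Leaving out SHP-77 gave 33 called genes, H2171 27, H69 11 and NCI-H510 8, while leaving out COLO668, NCI-H146 or H1417 gave 1, LINC01234. Without NCI-H446 the 4 called were LINC01234, CHRNA1, RAI14 and UGT3A1, named here after their values were seen. PLS3, ALDH1A1 and NRIP1 lost the call without NCI-H446, COLO668, NCI-H146 or H1417, with an adjusted p between 0.0616 and 0.106, and their differences lay between -7.46 and -5.22 whichever line was left out. ALDH1A1 also lost it when the sampling scheme (3 days or day 4 alone) was a term of the fit (adjusted p = 0.071).

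Epithelial genes were the group that lay lower in the ZEB1-high lines by the largest median of the 17 lists. Of 19 epithelial regulators 14 were tested, with a median difference of -1.78 against 0.045 over all genes, and 12 of the 14 were below 0. In OVOL2, ESRP1, ELF3 and KLF5 the groups did not overlap, which is 4 of 14 members against 2.23% of all genes. None of the 14 was called by limma, and 6 were lower at an unadjusted p below 0.05, a limit that 3.82% of all genes passed in that direction.

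OVOL2, a zinc finger repressor of mesenchymal genes, was at 6.84 in SHP-77, 6.96 in NCI-H446 and 8.38 in H2171. The ZEB1-low lines held it at 10.27 in NCI-H510, 10.64 in COLO668, 10.00 in NCI-H146, 11.30 in H69 and 10.90 in H1417. Both OVOL2 probe sets separated the groups. Without H2171 OVOL2 differed by -3.72 (adjusted p = 0.0298), and with the sampling scheme as a term by -3.16 (adjusted p = 0.0325).

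ESRP1, a splicing factor that sets epithelial isoforms, was at 6.60 in SHP-77 and 6.87 in NCI-H446 but at 11.02 in H2171, next to 11.05 in COLO668, the lowest of the ZEB1-low lines, and 12.34 in H69, the highest. Its difference of -3.59 (SE 0.97) had an adjusted p of 0.544, and without H2171 it was -5.02 (SE 0.37, adjusted p = 0.00978). GRHL2, a transcription factor of epithelial junction genes, was between 7.23 and 7.40 in the 3 ZEB1-high lines. H69 had GRHL2 at 7.30, inside that range, and the other ZEB1-low lines had it between 9.51 and 11.12, so the groups overlapped through 1 line. FOXA2, a transcription factor of endoderm, was at 6.64 in NCI-H446 and 6.21 in H2171 but at 10.96 in SHP-77, within the ZEB1-low lines at 10.04 to 11.47. Without SHP-77 FOXA2 differed by -4.43 (adjusted p = 0.0297). RBM47, an RNA-binding protein, was high in NCI-H510 (12.76) and COLO668 (12.54) and between 5.50 and 7.79 in the other 6 lines of both groups.

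Of 42 epithelial junction and polarity genes 39 were tested, with a median difference of -1.29 and 35 below 0. None was called, and 13 were lower at an unadjusted p below 0.05, against 3.82% of all genes. In 9 (23.1%), against 2.23% of all genes, every ZEB1-high line lay below every ZEB1-low line: CLDN3, PPL, PATJ, LLGL2, MAL2, ST14, SPINT1, AP1M2 and MYO5B. Those without another mention were named because of that separation, after their values were seen.

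The 3 ZEB1-high lines did not hold these junction genes alike. Centred on the mean of the 8 lines, the median of the 39 genes was -2.10 in NCI-H446, -0.26 in SHP-77 and 0.31 in H2171, against 0.10 to 1.14 in the ZEB1-low lines. H2171 thus lay within the ZEB1-low range. Of the 53 genes of both epithelial lists, 37 (69.8%) lay in NCI-H446 below every ZEB1-low line, 22 (41.5%) in SHP-77 and 17 (32.1%) in H2171, where the same shares over all genes were 15.7%, 14.1% and 13.5%.

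CDH1, the E-cadherin of adherens junctions, was at 4.66 in SHP-77 and 4.71 in NCI-H446 but at 11.43 in H2171. In the ZEB1-low lines it was at 13.08 in NCI-H510, 12.62 in COLO668, 11.63 in NCI-H146, 12.21 in H1417 and 8.67 in H69. H2171 therefore held more CDH1 than H69 despite its high ZEB1, and the difference of -4.71 (SE 1.71) had an adjusted p of 0.623. SPINT2, a membrane-bound inhibitor of serine proteases, was at 6.14 in SHP-77, 6.78 in NCI-H446 and 13.05 in H2171, and between 12.41 and 13.18 in the ZEB1-low lines. The SPINT2 difference moved from -4.05 (adjusted p = 0.623) to -6.25 (adjusted p = 0.00249) without H2171. EPCAM, an epithelial surface protein, was at 6.70 in NCI-H446 and between 13.20 and 14.20 in the other 7 lines, SHP-77 and H2171 included.

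CLDN3, a claudin of tight junctions, divided the lines in another way. It was at 5.63 in NCI-H446 and 5.64 in H2171 and at 9.33 in SHP-77, just under 9.74 in H69, with the other ZEB1-low lines between 10.67 and 11.35. Its difference was -3.95 (adjusted p = 0.423), and -5.19 without SHP-77 (adjusted p = 0.0162). MAL2, a protein of apical transport, was at 10.01 in SHP-77, 7.24 in NCI-H446, 9.89 in H2171 and between 11.58 and 12.54 in the ZEB1-low lines (difference -3.13, adjusted p = 0.363). AP1M2, an adaptor subunit of basolateral sorting in epithelia, was at 8.29 in SHP-77, 7.92 in NCI-H446 and 10.32 in H2171, and between 10.74 and 11.08 in the ZEB1-low lines. PATJ, a scaffold of the Crumbs polarity complex, was at 7.91, 5.57 and 7.79 in the ZEB1-high lines and between 8.92 and 10.51 in the others.

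**Figure D3:**
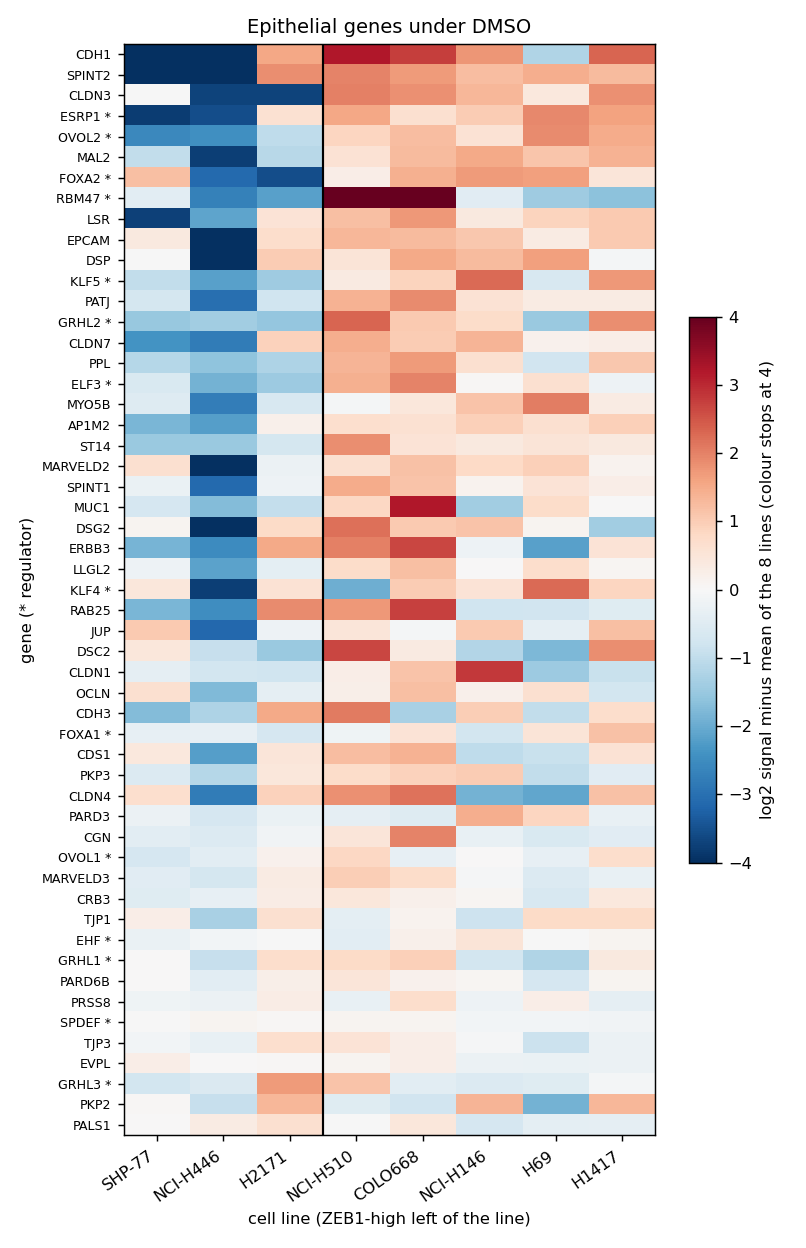
Levels of the 53 tested genes of both epithelial lists (rows, sorted by difference, regulators with an asterisk) in the 8 lines under DMSO, as log2 signal minus the mean of the 8 lines, with the colour scale stopped at 4 in either direction. NCI-H446 is low across most rows, and H2171 is high for CDH1, SPINT2 and RAB25, whose centred levels in SHP-77 and NCI-H446 are low.

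The list median rested on the lines. For the junction genes it was -0.47 without NCI-H446, -1.77 without H2171, -2.06 in the 5 lines sampled on 3 days (SHP-77 and NCI-H446 against 3) and 0.30 in the lines sampled at day 4 alone (H2171 against H69 and H1417). For the regulators the same settings gave -1.29, -2.04, -1.81 and -1.07. With the sampling scheme as a term of the fit over all 8 lines the medians were -1.27 for the junction genes and -1.74 for the regulators. H2171 is the single ZEB1-high line of its scheme, so the values within that scheme rest on it.

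The promoters of some of these members are shown because they hold the letters that ZEB1 is known to bind, CACCTG on either strand, which reads CAGGTG on the strand printed. They span 300 bases around the annotated start, read from RefSeq's promoters of GRCh38.p14 and printed along the gene's strand, with the letters in capitals. AP1M2 (chr19:10587263-10587562, minus strand) and PATJ (chr1:61742230-61742529, plus strand) hold 3 matches each, and CLDN3 (chr7:73770221-73770520, minus strand) and the called gene ALDH1A1 (chr9:72953004-72953303, minus strand) hold 1. They were chosen for print after the values were seen. Among the other called genes, the entries of PLS3 and NRIP1 hold 0 matches, and LINC01234, which was higher in the ZEB1-high lines, holds 1.
AP1M2: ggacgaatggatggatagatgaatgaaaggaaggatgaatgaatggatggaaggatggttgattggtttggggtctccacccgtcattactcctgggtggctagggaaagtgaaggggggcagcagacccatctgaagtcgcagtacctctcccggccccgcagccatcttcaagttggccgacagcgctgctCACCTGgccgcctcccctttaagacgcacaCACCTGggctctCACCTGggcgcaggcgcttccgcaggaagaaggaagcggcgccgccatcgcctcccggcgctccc
PATJ: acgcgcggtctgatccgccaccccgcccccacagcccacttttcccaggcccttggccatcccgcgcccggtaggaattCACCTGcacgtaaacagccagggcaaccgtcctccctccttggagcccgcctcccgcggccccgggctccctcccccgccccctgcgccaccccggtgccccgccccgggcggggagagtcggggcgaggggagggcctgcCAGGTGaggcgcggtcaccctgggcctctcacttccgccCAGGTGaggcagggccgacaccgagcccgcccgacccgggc
CLDN3: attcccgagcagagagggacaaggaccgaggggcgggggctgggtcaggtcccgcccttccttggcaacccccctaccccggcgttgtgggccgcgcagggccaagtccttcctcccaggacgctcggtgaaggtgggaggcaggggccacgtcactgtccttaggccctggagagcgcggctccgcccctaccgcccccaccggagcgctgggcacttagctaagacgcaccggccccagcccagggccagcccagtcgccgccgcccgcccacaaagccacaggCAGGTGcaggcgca
ALDH1A1: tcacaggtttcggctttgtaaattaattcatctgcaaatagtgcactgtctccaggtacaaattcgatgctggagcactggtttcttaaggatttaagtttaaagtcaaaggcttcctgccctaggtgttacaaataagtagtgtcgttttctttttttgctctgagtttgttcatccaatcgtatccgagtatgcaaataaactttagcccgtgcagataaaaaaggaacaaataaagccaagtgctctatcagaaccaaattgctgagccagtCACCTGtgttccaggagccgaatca

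Of 35116 promoters in the table, 7231 (20.6%) held a match, and of 12236 tested genes with a promoter there, 3041 (24.9%) did. Of the 53 epithelial genes tested, 32 had an entry in the table, and 21 of these (65.6%) held a match. Of the epithelial genes lower in every ZEB1-high line, 4 regulators and 9 junction genes, 7 had an entry and 6 of these (85.7%) a match. Promoters of CDH1, OVOL2, KRT19 and PRR15L were not used here. Over all genes lower in every ZEB1-high line the share was 81 of 264 (30.7%), and over those higher in every one 107 of 406 (26.4%). A match is a description of the letters in the window and not a bound site.

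Keratins differed from line to line. Of 15 intermediate filament genes 14 were tested, with a median difference of -0.24, none called and 1 lower in every ZEB1-high line, a separation found in 2.23% of all genes. KRT19, a keratin of simple epithelia, was at 5.75 in SHP-77, 5.86 in NCI-H446 and 8.38 in H2171, and between 10.25 and 11.86 in the ZEB1-low lines. The difference of KRT19 was -4.59 (SE 0.66, adjusted p = 0.225), and -5.45 (adjusted p = 0.014) without H2171. A second KRT19 probe set, too dim to be kept, differed by -0.01, and its groups overlapped. KRT18 was at 7.86 in NCI-H446 and 7.76 in H2171 but at 13.54 in SHP-77, where the ZEB1-low lines lay between 11.54 and 13.71. Its partner KRT8 was at 8.70 in NCI-H446 and between 11.80 and 12.64 in the other 7 lines. NEFL, a neurofilament protein, was high in SHP-77 (12.17) and H2171 (12.66) and at 6.73 in NCI-H446, within a ZEB1-low range of 6.44 to 11.35.

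Mesenchymal genes had members on either side of 0. Of 46 listed 42 were tested, with a median difference of 0.18 against 0.045 over all genes, 16 below 0, none called, and 2 higher and 1 lower at an unadjusted p below 0.05. These counts by p lie near the shares over all genes. By size, 9 of the 42 were higher by more than 1 and 2 lower, against 557 and 924 of 15351 genes. In NCI-H446 17 (40.5%) lay above every ZEB1-low line, against 19.9% of all genes. In H2171 11 (26.2%) did, against 21.8%, and in SHP-77 10 (23.8%), against 17.7%. COL5A1, a fibrillar collagen chain named here after its value was seen, was the 1 member of 42 higher in every ZEB1-high line (2.38%, against 3.42% of all genes), and H2171 alone held it clearly above the rest, at 9.74 against 6.67 in both SHP-77 and NCI-H446 and at most 6.65 in the ZEB1-low lines.

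VIM, the mesenchymal intermediate filament vimentin, was at 7.56 in SHP-77, 10.01 in NCI-H446 and 7.73 in H2171. In the ZEB1-low lines it was at 9.70 in NCI-H510, 7.89 in COLO668, 9.27 in NCI-H146, 7.58 in H69 and 9.41 in H1417. The groups overlapped fully and the difference was -0.34 (adjusted p = 0.916). MSN, the membrane-cytoskeleton linker moesin, was between 11.70 and 12.69 in the ZEB1-high lines and between 5.86 and 7.36 in 4 ZEB1-low lines, but NCI-H510 held it at 12.33. Its difference of 4.66 (adjusted p = 0.605) became 5.84 (adjusted p = 0.0105) without NCI-H510. A second MSN probe set, too dim to be kept, differed by 0.37, and its groups overlapped. ANXA2, a calcium-dependent membrane protein, was at 12.44, 13.34 and 13.19 in SHP-77, NCI-H446 and H2171 and between 7.89 and 12.85 in the ZEB1-low lines (difference 2.21, adjusted p = 0.698). S100A6 went the other way, at 7.25 in NCI-H446 and 6.60 in H2171 but 12.69 in SHP-77, with 10.79 to 13.42 in the ZEB1-low lines. LGALS1, or galectin 1, was high in SHP-77 (12.27) and between 6.92 and 8.79 elsewhere.

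Other inducers of the transition were read beside ZEB1. Of 11 listed, 7 besides ZEB1 passed the filter, and none was called or passed an unadjusted p of 0.05. ZEB2, its paralogue, lay higher in every ZEB1-high line by a small margin, between 6.80 and 7.30 against 6.55 to 6.71. It was the 1 such member of 7, a separation found in 3.42% of all genes. SNAI2, the repressor Slug, was at 11.61 in SHP-77, 5.83 in NCI-H446 and 8.47 in H2171, and its ZEB1-low levels ran from 4.61 in NCI-H510 to 12.05 in H69 (adjusted p = 0.944). SNAI1 lay between 6.79 and 7.60 in all 8 lines. TCF4, an E protein, was between 7.81 and 13.10 in all of them (adjusted p = 0.942). PRRX1, a homeobox factor, was at 12.47 in NCI-H446 and between 6.64 and 7.18 elsewhere, and TWIST2 was at 8.42 in H2171 and between 5.89 and 6.73 elsewhere.

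**Figure D4:**
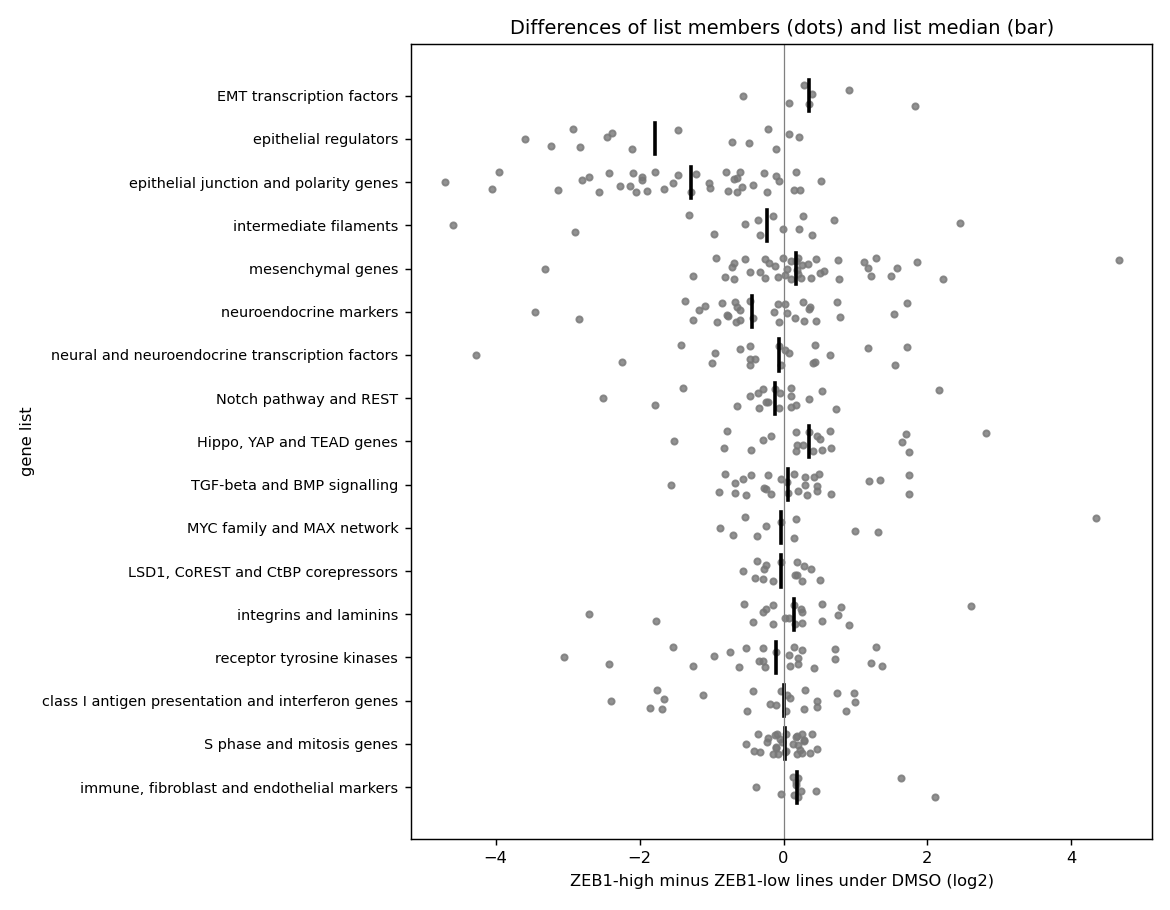
Difference of each tested member (dot, log2, ZEB1-high minus ZEB1-low lines under DMSO) in the 17 gene lists, with the list median as a bar. The medians of the epithelial regulators (-1.78) and the junction and polarity genes (-1.29) lie below 0, and the other 15 lie between -0.44 and 0.36.

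Neuroendocrine markers were present in both groups. Of 34 listed 32 were tested, with a median difference of -0.44, 20 below 0, none called and 1 lower at an unadjusted p below 0.05, a share no higher than the 3.82% of all genes. The groups overlapped in all 32, and without NCI-H446 the median was 0.069.

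DDC, the aromatic amino acid decarboxylase, was at 13.43 in SHP-77, 7.14 in NCI-H446 and 8.45 in H2171, and between 12.83 and 13.87 in the ZEB1-low lines. Without SHP-77 its difference moved from -3.46 (adjusted p = 0.623) to -5.33 (adjusted p = 0.0162). GRP, the precursor of gastrin-releasing peptide, was likewise high in SHP-77 (13.58) and low in NCI-H446 (6.45) and H2171 (6.21), with 9.38 to 13.61 in the ZEB1-low lines. SSTR2, a somatostatin receptor, was at 9.70 in NCI-H446, 10.80 in H2171 and 10.26 in H69 and between 6.44 and 7.19 in the other 5 lines. RTN1, a reticulon of neuroendocrine cells, was between 10.93 and 13.42 in the ZEB1-high lines and ran from 6.80 in H1417 to 12.02 in NCI-H146 in the others.

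Neural and neuroendocrine transcription factors, 21 tested of 26, had a median difference of -0.056, with none called and 2 lower at an unadjusted p below 0.05. ISL1, a LIM homeobox factor, was between 5.77 and 8.64 in the ZEB1-high lines, at 8.05 in NCI-H510 and between 11.26 and 13.47 in the other ZEB1-low lines (difference -4.28, adjusted p = 0.596). MYT1L, a neuronal zinc finger repressor, did not overlap, with 8.92 to 9.84 against 5.61 to 8.77. It was the 1 member of 21 higher in every ZEB1-high line, against 3.42% of all genes. NKX2-2, a homeodomain factor, was between 8.98 and 10.04 in the ZEB1-high lines and ran from 5.06 in NCI-H510 to 10.66 in H1417 in the others. SOX1 was bright in COLO668 (12.27) and between 5.42 and 7.86 elsewhere. The tuft cell factor POU2F3 was dim in all 8 lines, between 4.54 and 4.79.

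REST, the repressor of neuronal genes outside neurons, lay between 8.56 and 8.85 in all 8 lines. The Notch list that holds it, with 21 of 21 tested, had a median difference of -0.12, none called and 2 lower at an unadjusted p below 0.05. Its ligand gene DLL1 was at 5.28 in NCI-H446 and between 9.11 and 11.84 in the other 7 lines, and the receptor gene NOTCH2 was between 5.94 and 8.54 in the ZEB1-high and 7.21 and 9.61 in the ZEB1-low lines. The glycosyltransferase gene MFNG was highest in H2171 (12.54), and its relative LFNG ran from 7.70 in NCI-H446 to 11.93 in NCI-H510. RBPJ, the DNA-binding effector of Notch named after its values were seen, was lower in every ZEB1-high line, between 10.17 and 10.47 against 10.66 to 11.34. It was the 1 such member of 21, a separation found in 2.23% of all genes.

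Of 24 Hippo, YAP and TEAD genes 21 were tested, with a median difference of 0.35, none called and 3 higher and 1 lower at an unadjusted p below 0.05. In WWTR1, NF2, PTPN14 and CRIM1 every ZEB1-high line lay above every other, which is 4 of 21 members against 3.42% of all genes. PTPN14, a phosphatase that restrains YAP, was at 9.03 in SHP-77, 11.79 in NCI-H446 and 9.72 in H2171. It was at 7.18 in NCI-H510, 6.71 in COLO668, 8.45 in NCI-H146, 7.06 in H69 and 7.47 in H1417 (difference 2.81, SE 0.65, adjusted p = 0.453). CRIM1 was between 7.47 and 8.90 against 5.35 to 7.19 (adjusted p = 0.57). YAP1, the coactivator itself, was dim in all 8 lines, between 5.62 and 6.38. AJUBA was between 7.67 and 9.72 in the ZEB1-high and 6.33 and 7.67 in the ZEB1-low lines, a difference of 1.65 (adjusted p = 0.591), and AMOTL2 overlapped, with 6.26 to 10.42 against 5.73 to 8.03.

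TGF-beta and BMP signalling genes had a median difference of 0.06 over 29 tested of 30. None was called, and 1 in each direction had an unadjusted p below 0.05. TGFB1, named after its values were seen, was the 1 member of 29 higher in every ZEB1-high line (3.45%, against 3.42% of all genes). TGFB3 was between 8.21 and 9.12 in the ZEB1-high lines and between 6.98 and 7.24 in 4 ZEB1-low lines, with COLO668 at 8.69. INHBA was at 12.66 in SHP-77, and its level in the other 7 lines ran from 6.58 to 8.85. ID1, a target of BMP signalling, was between 12.54 and 13.52 against 7.80 to 13.49, and the coreceptor gene TGFBR3 between 6.30 and 7.84 against 7.34 to 10.01.

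MYC was high in all 3 ZEB1-high lines, at 11.14 in SHP-77, 12.83 in NCI-H446 and 13.71 in H2171. In the ZEB1-low lines it was at 9.34 in NCI-H510, 6.32 in COLO668, 12.58 in NCI-H146, 7.20 in H69 and 5.64 in H1417. NCI-H146 thus overlapped the ZEB1-high lines, and the difference of 4.35 had an adjusted p of 0.623. MYCL was high in NCI-H510 (14.26) and COLO668 (14.44), while the other 6 lines held it between 6.86 and 10.17. MYCN was high in H69 alone (11.76). MXI1, a partner of MAX that opposes MYC, did not overlap, between 11.65 and 12.38 against 10.11 to 11.29 (difference 1.31, adjusted p = 0.538). It was the 1 member of 11 higher in every ZEB1-high line, against 3.42% of all genes. MAX was at 7.33 in H1417 and between 11.65 and 12.02 in the other 7 lines. Of the list's 12 genes 11 were tested, with none called and 2 higher and 1 lower at an unadjusted p below 0.05.

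The genes listed for the LSD1, CoREST and CtBP corepressors had differences under 1 in size. KDM1A, which encodes LSD1, was at 11.48, 12.55 and 12.74 in SHP-77, NCI-H446 and H2171 and between 11.44 and 12.22 in the ZEB1-low lines (difference 0.51, adjusted p = 0.766). CTBP1 was between 11.31 and 11.54 against 11.14 to 12.67, and CTBP2 between 11.57 and 11.82 against 11.69 to 12.82. RCOR3 and HDAC2 differed by -0.39 and 0.38 (adjusted p = 0.768 and 0.779). None of the 15 tested of 16 was called or passed an unadjusted p of 0.05.

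Receptor tyrosine kinases had a median difference of -0.099 over 25 tested of 27, with none called and 3 lower at an unadjusted p below 0.05. KIT, MET and ALK were lower in every ZEB1-high line, 3 of 25 members against 2.23% of all genes, and ALK is named after its values were seen. MET, the receptor of hepatocyte growth factor, was at 6.11 in NCI-H446, 10.36 in SHP-77 and 10.81 in H2171, and between 11.21 and 11.83 in the ZEB1-low lines (difference -2.42, adjusted p = 0.671). KIT was at 5.78 in NCI-H446, 9.61 in SHP-77 and 10.25 in H2171, and between 10.31 and 12.69 in the others. The gap of both genes was thus wide in NCI-H446 and narrow in H2171. ERBB3 was high in H2171 (10.11) and low in SHP-77 (6.73) and NCI-H446 (6.07), with 6.44 to 11.25 in the ZEB1-low lines. FGFR2 was highest in NCI-H446 (10.97).

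Integrins and laminins, 21 tested of 24, had a median difference of 0.14, with none called and 1 lower at an unadjusted p below 0.05. ITGA4 was bright in NCI-H446 (10.76) and H2171 (9.42) and between 4.82 and 7.07 in the other 6 lines. ITGB8 was between 8.69 and 9.71 in the ZEB1-low lines, and among the ZEB1-high lines at 8.95 in NCI-H446, 6.43 in SHP-77 and 4.26 in H2171. ITGA6 differed by -1.77 and ITGA7 by 0.91 (adjusted p = 0.742 and 0.726).

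Class I antigen presentation and interferon genes had a median difference of 0.006 over 22 tested of 27, with none called and 3 lower at an unadjusted p below 0.05. HLA-B, HLA-C and ERAP1 were lower in every ZEB1-high line, 3 of 22 members against 2.23% of all genes, of which ERAP1 is named after its values were seen. HLA-C was at 9.49 in SHP-77, 9.20 in NCI-H446 and 8.41 in H2171, and between 10.18 and 12.73 in the ZEB1-low lines (difference -2.40, adjusted p = 0.482). HLA-B was between 9.12 and 9.45 against 9.82 to 13.11 (adjusted p = 0.623). Both were read from probe sets that may also detect other class I genes, so they are uncertain as separate measurements. TAPBP, the peptide-loading protein tapasin, was at 6.84 in NCI-H446, 8.30 in H2171 and 10.06 in SHP-77, where the ZEB1-low lines lay between 9.11 and 11.37. CGAS was dim in the ZEB1-high lines, and among the others it was at 8.78 in NCI-H510, 7.87 in COLO668 and 9.26 in H1417 but near 5.90 in NCI-H146 and H69.

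S phase and mitosis genes did not separate the groups. All 30 were tested, with a median difference of 0.027, and none was called, passed an unadjusted p of 0.05 or kept the groups apart. AURKA differed by 0.47, AURKB by 0.40, RRM1 by -0.41 and CCNE2 by -0.52 (adjusted p between 0.744 and 0.812).

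The response of the same lines to 552A was compared at day 4, the day that every line has, as 1 log2 ratio of 552A to DMSO per line. These ratios share their DMSO arrays with the levels above and with the choice of groups, and ZEB1 therefore got no test. limma called 0 of 15351 genes (0.0%), with a lowest adjusted p of 0.803 and 872 genes (5.68%) at an unadjusted p below 0.05; no second tool was run. The ratios did not overlap in 245 genes (1.6%) higher and 399 (2.6%) lower in the ZEB1-high lines.

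The ZEB1 ratio was -0.19 in SHP-77, 0.23 in NCI-H446 and -0.13 in H2171, and 2.33 in NCI-H510, 0.93 in COLO668, 0.52 in NCI-H146, 1.54 in H69 and 2.42 in H1417. At day 4 the ratio was thus above 0 in each ZEB1-low line, though over all days the mean of NCI-H146 stayed dim, at 4.20 under DMSO and 4.37 under 552A. Over all 552A arrays the 8 lines kept their ZEB1 order by group, with 10.03 to 11.98 against 4.37 to 8.58.

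LIX1L had ratios of -0.11, -0.04 and 0.18 in SHP-77, NCI-H446 and H2171 and between 0.55 and 1.46 in the ZEB1-low lines, a difference of -1.12 (SE 0.20, adjusted p = 0.803). GRP ratios were below 0 in all 8 lines, between -0.59 and -0.32 in the ZEB1-high and between -2.17 and -1.05 in the ZEB1-low lines. GCHFR, which regulates tetrahydrobiopterin synthesis, was between -0.23 and 0.17 against 0.71 to 1.46. GIHCG, a noncoding RNA, was between -0.23 and 0.05 against 0.41 to 0.58, and IGF2R, the receptor that clears IGF2, between 0.29 and 0.39 against -0.19 and 0.03. RDM1, MATR3 and GAB3 had differences of 0.39, 0.43 and 0.69, and CIB1 and RAB11FIP4 of -0.44 each, all with an adjusted p of 0.803.

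**Figure D5:**
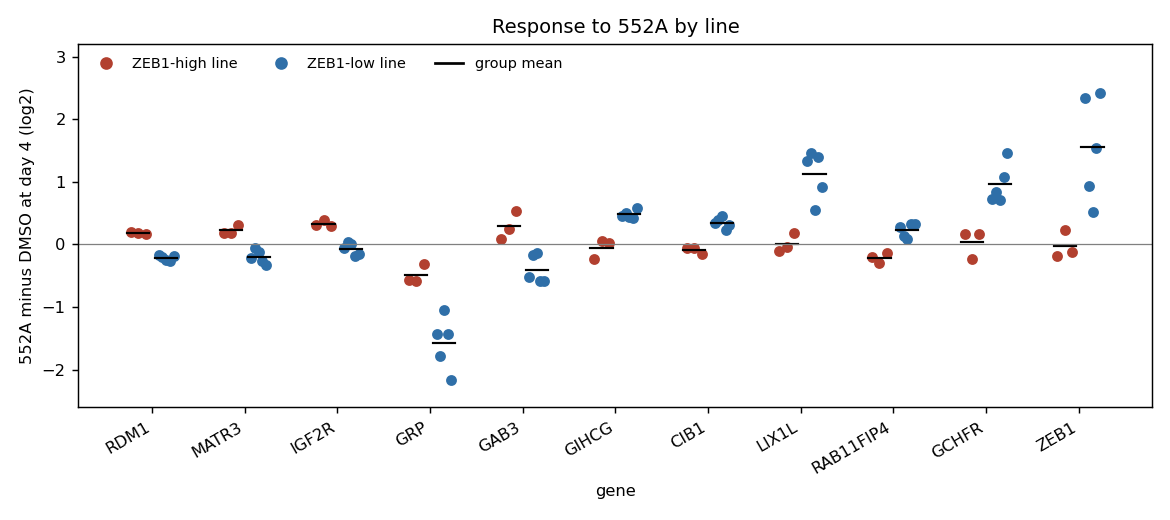
Log2 ratio of 552A to DMSO at day 4 for the 10 genes with the smallest p and for ZEB1, with a dot for each line (red ZEB1-high, blue ZEB1-low) and the group mean as a bar. The groups are apart for each of the 11 genes, of which 10 were picked by the p of this difference and ZEB1 chose the groups. Over all genes the ratios did not overlap in 1.6% (higher) and 2.6% (lower), and no tested gene passed the threshold.

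The 552A arrays of these lines repeated the epithelial pattern of the DMSO arrays, as measurements of the same lines and not as further replicates. Over them the median difference was -1.56 for the epithelial regulators and -1.26 for the junction genes. LINC01234 was the 1 gene called (difference 3.64, adjusted p = 0.000101), and PLS3, NRIP1 and ALDH1A1 had differences of -6.94, -5.48 and -5.74 (adjusted p = 0.0924, 0.0924 and 0.279).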

How the data were processed

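Arrays of the HG-U133 Plus 2.0 type from Affymetrix, 88 in all, gave the data. Values are log2 expression levels per probe set as the authors deposited them, made with a program and scaling not given in the sources used here. They were used without rescaling. Of 54675 probe sets, 62 were controls, 41091 had 1 gene symbol, 1801 several and 11721 none, and only those with 1 were used. Dim probe sets, whose mean stayed at or under 7.41 (the median over all arrays) in each group of samples, were dropped. A gene was read from its brightest remaining probe set, one ending in _x_at only where no other remained. This left 15352 of 19775 genes.

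DMSO arrays were averaged to 1 mean per line, and 3 lines were tested against 5 in limma (version 3.58.1, under R version 4.3.3) by its moderated linear model. The p-values are two-sided and adjusted after Benjamini and Hochberg over 15351 genes, all but ZEB1, which had chosen the groups. A gene is called at an adjusted p below 0.05, and SE is that of the model. Levels are compared between lines within a gene, never between genes. The code was tested on simulated data with known changes. Arrays have no read depth, and the number of lines limits the precision.

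The lines, the 17 gene lists and the rules were chosen with earlier results of these data known. Genes named are the called ones whose groups did not overlap, up to 12 in each direction by size, or, with fewer than 5 called, the 5 of smallest p in each direction. Added to them are 22 regulators and, from every list, the 4 genes that differed most. List members without a kept probe set of their own are not reported here. Promoter sequences are those of RefSeq for GRCh38.p14. Python (3.11.15) with pandas (2.3.3) and numpy (2.4.6) made the tables, and matplotlib (3.10.9) drew the plots. Alternatives were quantile normalization, other filters and probe set rules, NCI-H526 added, an intensity trend, the sampling scheme, single days, arrays in doubt removed, each line left out, fits at array level and the 552A arrays.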

Additional observations from a re-analysis of the deposited data

Results flagged for a closer look

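Lines were tested for standing apart from the other ZEB1-low lines in 98 named genes, and 11 did by Dixon's criterion, which chance meets in about 1 of 20 groups. H69 was high for MYCN (11.76, the other 4 at 6.58 to 6.86), SSTR2 (10.26, others 6.44 to 7.19) and INHBA (8.85, others 6.58 to 7.17) and low for EPCAM (13.2, others 13.92 to 14.2). NCI-H510 was high for MSN (12.33, others 5.86 to 7.36) and MFNG (9.99, others 7.35 to 7.75) and low for RRM1 (12.23, others 12.87 to 12.95). COLO668 was high for DDC (13.87, others 12.83 to 13.11) and TGFB3 (8.69, others 6.98 to 7.24). NCI-H146 was high for TWIST2 (6.72, others 5.89 to 6.13), and H1417 was low for MAX (7.33, others 11.65 to 11.95).

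In 6 named genes every ZEB1-high line responded to 552A at day 4 in one direction and every ZEB1-low line in the other. RDM1, MATR3, GAB3, CIB1 and RAB11FIP4 had been named for the small p of this same difference, so their opposite directions add no support. The share of such genes over all genes was not counted. The difference between the group means was 0.39 for RDM1, 0.43 for MATR3, 0.69 for GAB3, -0.44 for CIB1 and -0.44 for RAB11FIP4, each with an adjusted p of 0.803. For GRHL2 it was -0.51 (adjusted p = 0.826), with means of -0.12 and 0.39. In limma none of the 6 differences passed the threshold.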

How the results depend on the processing

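The reported comparison called 4 genes, and 3 to 5 were called under quantile normalization, other filters, the mean of all probe sets, NCI-H526 added, an intensity trend, the sampling scheme as a term, days weighted equally, day 4 arrays or without the arrays in doubt. The stricter filter on dim probe sets gave the 3, all lower, and left LINC01234 untested. The 5 lines sampled on 3 days gave 2 (GPR27 and TMEM133, neither among the 4), and those sampled at day 4 alone 0, with 1137 at an unadjusted p below 0.05. Leaving out a line gave 1 to 33, and the 552A arrays gave 1. At array level, with the line as a random block (correlation 0.897), 474 were called, and 452 with a replicate block added. The ZEB1 group varies only between lines, so these larger counts rest partly on arrays that are not further replicates. The samples were not treated as paired by replicate number. Over 21 line-days the correlation of same-numbered deviations ran from -0.405 to 0.488, a spread that does not settle whether the numbers pair them. For the response to 552A, 0 genes were called as reported and in every alternative run except the ratios per replicate with replicate block, which called 1, LIX1L.

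Of 2209 values of named genes under an alternative, 2061 kept their direction and side of the threshold, 83 newly passed it, 24 no longer did and 41, of 20 genes that were not called, changed sign. In the lines sampled at day 4 alone (H2171 against H69 and H1417) these were CDH1 (0.99), EPCAM (0.008), SPINT2 (0.51), ERBB3 (2.32), MYCL (3.16), POU2F3 (-0.13), TCF4 (-1.70), LGALS1 (-0.34), NKX2-2 (-1.10), INHBA (-0.46) and ID1 (-0.65). With the day 4 arrays of all 8 lines CDH1 (-4.77) and SPINT2 (-3.98) kept their sign. In the lines of 3 days they were SNAI1 (-0.21), SNAI2 (0.96), INSM1 (0.026), MYCN (0.043), CCNE2 (0.070) and COL1A1 (-0.70). With NCI-H526 added they were SNAI2 (0.20), INSM1 (0.13) and POU2F3 (-1.29), with the mean of probe sets INSM1 (0.115) and POU2F3 (-0.011), with quantile normalization POU2F3 (-0.004) and with no filter SOX1 (0.024). Leaving out each line in turn, the difference ran from -0.117 to 0.217 for SNAI1, -2.05 to 0.836 for SNAI2, -1.12 to 0.102 for VIM, -0.164 to 0.048 for INSM1 and -0.012 to 0.050 for POU2F3. It ran from -1.18 to 0.112 for MYCN, -1.49 to 0.411 for MYCL, -0.068 to 2.85 for PRRX1, -0.541 to 0.78 for TCF4, -0.107 to 2.78 for INHBA and -0.319 to 0.883 for COL1A1. The cause of these changes was not tested. Differences of genes dim in one group may be lower limits.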

Other observations

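Other genes kept the groups apart without passing the threshold, and are listed here after their values were seen. Lower in every ZEB1-high line were TENM3, a teneurin of neural connections (7.70 against 10.85, adjusted p = 0.224), FAM111A, a protease (6.37 against 10.78, adjusted p = 0.243), and SAT1, the polyamine acetyltransferase (9.70 against 11.80, adjusted p = 0.249). So were SDC4, a heparan sulphate proteoglycan (6.07 against 10.14, adjusted p = 0.249), LMO3, a LIM-only cofactor (6.75 against 11.42, adjusted p = 0.25), and PRKCA, a protein kinase C (7.88 against 10.25, adjusted p = 0.25). QPCT, the glutaminyl cyclase that modifies peptide hormones, was dim in the ZEB1-high lines (5.52 against 10.77, adjusted p = 0.25). Higher in every ZEB1-high line was ALDH1L2, a mitochondrial folate enzyme (7.96 against 5.16, adjusted p = 0.25). In both arms its mean was under the filter limit in every ZEB1-low line and in NCI-H526. ALDH1L2 thus entered the test through the ZEB1-high lines, as LINC01234 did. KCNJ2, an inward rectifier potassium channel, was also higher in every ZEB1-high line (9.25 against 6.45, adjusted p = 0.297). So was CHAC2, an enzyme of glutathione breakdown (11.73 against 9.93, adjusted p = 0.297).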
